A study of Mus musculus with 3 samples.

Results

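The sites described here are isolated CCWGG sites of undifferentiated mouse embryonic stem cells (ESCs), where W is A or T. A site was taken when the table of the undifferentiated library listed a CCAGG or CCTGG motif with alignment type M on an autosome, more than 40 bp from any CCGG motif and more than 13 bp from any CpG of GRCm38. The rule gave 168981 sites, 84243 of them CCAGG and 84738 CCTGG. They made up 32.0% of the 527401 type M CCWGG sites on autosomes, 12% of the 1408466 sites of that library and part of the 2231048 positions listed in at least 1 library of the series. The rule used sequence, position and alignment type, and apart from the authors' minimum of 5 reads it used no depth.

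MethylRAD sequencing was applied to E14Tg2A mouse ESCs, an established feeder-independent line, with 1 library for each of 3 conditions. The undifferentiated cells were kept in medium with leukemia inhibitory factor and received no treatment. The other conditions, differentiation by withdrawal of that factor and retinoic acid, without or with the LSD1 inhibitor pargyline (PG), were not compared here. Their deposited lists repeat the CCWGG counts of the undifferentiated list, except for CCAGG with pargyline. Which condition the shared counts stem from cannot be told here. With 1 library and no replicate, no test between samples was possible, so values are given with 95% intervals that cover counting error only (PCR copies were not told apart) and, where useful, with their range over the 19 autosomes. The intervals treat sites as independent, although close sites can be counted from the same reads, so they are too narrow.

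In mammals most 5-methylcytosine stands in CpG, where DNMT1 copies it after replication. ESCs also carry methylation at CpA and, less often, at CpT, laid down by the de novo enzymes DNMT3A and DNMT3B, and DNMT1 does not maintain it. The inner cytosine of CCAGG on one strand faces the inner cytosine of CCTGG on the other, so that both are names of the same double-stranded motif, once in a CpA and once in a CpT. The restriction enzyme FspEI recognises a methylated or hydroxymethylated cytosine that follows another cytosine. The paper names a further context, a modified cytosine before A or T and then C or G. FspEI cuts at a fixed distance from the modified cytosine, and a read does not record which strand was methylated. A motif was recorded wherever a read held it, so the modified cytosine behind a listed site was not identified.

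The sequences below show deep and gene-linked examples. The first 4 are those of the 10 most read members that have a unique 27 bp window. The others are the deepest members of Mroh2a, one of the genes with the highest rates, and of 4 genes from the lists of DNA methylation and pluripotency genes. The site shown for Tcf7l1 lies in the overlapping gene Gm37736 as well, and its noncoding exon was not assigned to either gene. Each is 29 bp of the plus strand of GRCm38, 5′ to 3′, with the CCWGG motif in capitals and 12 flanking bases on either side. No CpG stands inside any of these windows, as the rule requires.
Sfi1 promoter, chr11:3151224-3151252, 743 reads: agcccaggctggCCTGGaatctgctgtgc
Intergenic, chr8:19704631-19704659, 313 reads: cttcttcacaacCCAGGccagtcttgagg
Ap1b1 intron, chr11:4992732-4992760, 181 reads: agacactgagggCCTGGtggtctgaggtc
Napsa intron, chr7:44573445-44573473, 179 reads: cactcaagctggCCAGGgtcccttcatgt
Mroh2a intron, chr1:88258330-88258358, 95 reads: cccaactgagctCCTGGcttcatctctgg
Dnmt3a intron, chr12:3811835-3811863, 91 reads: gggcctcagagcCCAGGagtagagtgggg
Kdm2b intron, chr5:122943165-122943193, 67 reads: taggaaaacatcCCTGGtctggctatgtg
Tcf7l1 noncoding exon, chr6:72749811-72749839, 53 reads: accctgtgtctaCCTGGgataagtctaga
Tet3 coding exon, chr6:83368476-83368504, 48 reads: ctatgttctcatCCAGGaagttgtgttca

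Coverage depth of the isolated sites was low. Their median was 8 reads and their mean 10.9 reads, against a median of 12 reads at the CCWGG sites that were not isolated and 27 reads at CCGG sites of the same library. Exactly 5 reads, the lowest value the table holds, supported 38893 sites (23.0%), while 59578 (35.3%) had at least 10 reads and 139 had at least 100. Together the isolated sites held 1844348 of the 40176194 reads of the library (4.59%).

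To read these sites against what could have been listed, every CCWGG motif of the autosomes was located in GRCm38. Of 7252948 motifs, 5423450 were isolated by the same distances, and 4295976 of these had a 27 bp window that occurs once in the genome. Of the unique isolated motifs, 162543 were listed, a listing rate of 3.78%. Over all isolated motifs, unique or not, the rate was 3.12%. The rate was 23.5% for unique CCWGG motifs that were not isolated and 54.4% for CCGG motifs. At a minimum of 10 reads the rate of the isolated motifs was 1.34%. The values below are for unique motifs unless stated otherwise.

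Listing followed base composition closely. Where the window of 50 bp on either side of the motif centre held at most 30% GC, 0.0391% of motifs were listed (30 of 76731). The rate was 2.54% at 46 to 50% GC, 10.1% at 56 to 60% and 20.3% (19.7 to 20.9) at 66% or more. The rate rose in every step between the 9 bins of GC content, while median depth only went from 6.5 to 8 reads. Over the 19 autosomes the rate ran from 2.82% on chromosome 3 to 4.82% on chromosome 11 and followed their GC content (Spearman's rho 0.942 across autosomes, a description of 1 library).

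Distance to the nearest CpG, beyond the minimum that the rule set, also separated the motifs. Of motifs 14 to 20 bp from a CpG 9.14% were listed, of those 51 to 100 bp away 1.86%, and of those over 400 bp away 0.829% (0.769 to 0.892). Against the number that GC content alone gives, listed sites were 1.75 times as frequent in the nearest bin and 0.408 times in the farthest. Sites 14 to 32 bp from a CpG therefore supplied 25.4% plus 30.2% of the unique members, whereas 17434 members (1.33% of 1307481 motifs) stood more than 100 bp from both a CpG and a CCGG motif. At the edge of the rule, 8.63% of motifs 13 bp from a CpG and 11.1% of those at 14 bp were listed, and 16.7% of motifs 40 bp from a CCGG motif and 17.0% of those at 41 bp. The rate was 23.1% for motifs with a CpG 1 to 8 bp away that were over 40 bp from any CCGG.

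**Figure D1:**
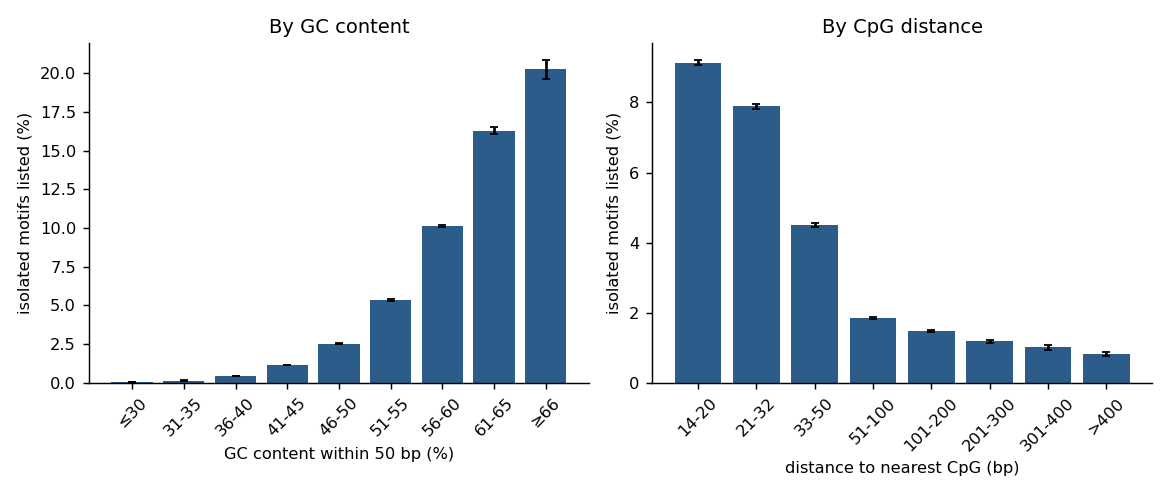
Share of unique isolated CCWGG motifs that were listed in undifferentiated ESCs, by GC content within 50 bp of the motif centre (left) and by distance to the nearest CpG (right). Bars start at 0 and whiskers are 95% Wilson intervals. The rate climbs from 0.0391% to 20.3% with GC content and falls from 9.14% to 0.829% with distance.

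The bases next to the motif differed between listed and unlisted sites as well. Read on the strand that carries CCAGG, the rate was highest with G before and C after the motif (6.86%) and lowest with T before and A after it (2.46%). With A before and C after it was 5.80%, and with G before and T after, the same composition read from the other strand, 4.27%. Among motifs over 100 bp from a CpG, these 4 contexts gave 3.48%, 0.592%, 3.16% and 1.68%. The ranking changed against the number expected from the rate of all unique isolated motifs in the same bins of GC content and CpG distance. There the 4 contexts held 1.49, 0.841, 1.57 and 1.15 times the expected number. A before and C after was then the highest context, and C before and G after the lowest (0.650 times).

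Farther from the motif, the composition of listed sites departed from that of all motifs in narrow bands. The departure was measured at each offset from the central base as relative entropy in millibits, where 0 means equal base shares. For sites over 100 bp from a CpG it averaged 104 millibits at offsets 3 to 5 on either side, 22.01 at offsets 6 to 10, 78.8 at offsets 11 to 16 and 12.5 at offsets 21 to 40. The outer bands held complementary bases on the 2 sides. An A at offset -13 was 0.496 times as frequent in listed sites as in all motifs and a T at offset 13 was 0.427 times as frequent. A G at offset -16 was 1.60 times and a C at offset 16 was 1.63 times as frequent. Closer to the motif, a G stood at 1.67 at offset -3 and 1.78 at offset -4, and a C at 1.86 at offset 3 and 1.72 at offset 4. The sides were not equal, with 180 millibits at offset -4 and 116 at offset 4.
The bands weakened towards CpGs. At offsets 11 to 16 the mean was 43.7 millibits for sites 33 to 100 bp from a CpG, 15.9 for sites at 14 to 32 bp and 3.45 for CCWGG sites with a CpG 1 to 8 bp away that were over 40 bp from any CCGG. FspEI cuts 12 and 16 bases from the modified cytosine, which for the inner cytosine of the motif is after offsets 11 and 15, so the outer bands lie where the sequenced fragments end. What sets the bands was not tested.

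**Figure D2:**
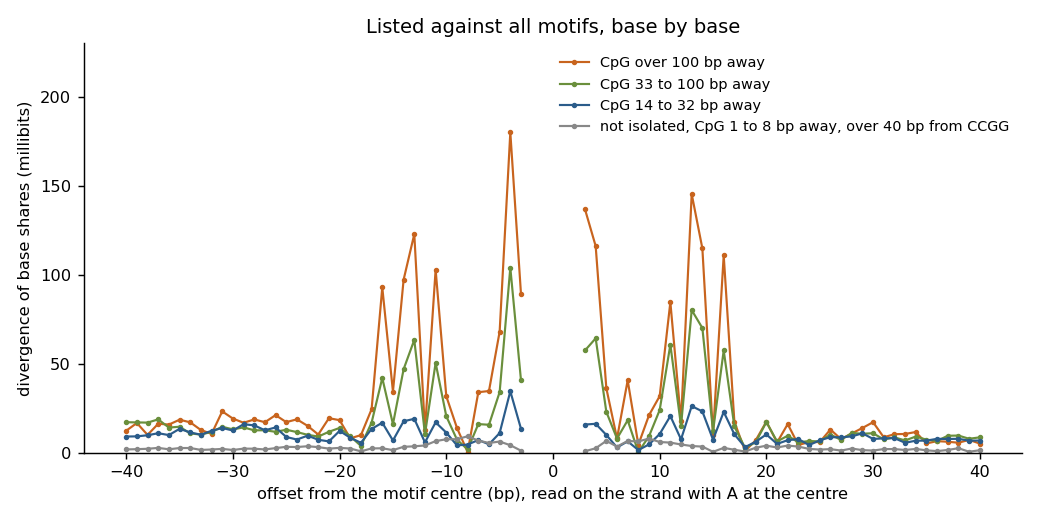
Departure of base shares in listed CCWGG motifs from those in all motifs of the same class (millibits), by offset from the motif centre on the strand with A at the centre. The 3 classes of isolated motifs by CpG distance and the motifs close to a CpG are drawn as lines. Peaks at offsets 3 to 5 and 11 to 16 are tallest for sites over 100 bp from a CpG and nearly flat for the class close to a CpG.

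Most isolated sites lay in genes. Gene bodies, here genes of any type beyond 1 kb from a transcription start site, held 60.3% of the unique members and 50.7% of the motifs. Promoters, within 1 kb of a start site, held 5.80% and 4.61%, and intergenic sequence held 33.9% and 44.7%. The listing rate was 4.50% in gene bodies, 4.76% in promoters and 2.87% in intergenic sequence. The gene body to intergenic ratio was thus 1.57 (1.55 to 1.58) and lay between 1.27 on chromosome 13 and 1.88 on chromosome 8. The promoter to intergenic ratio was 1.66 (1.62 to 1.69), between 1.3 and 1.97. Both ratios exceeded 1 on 19 of 19 autosomes.

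The other motifs of the library had the opposite direction in promoters. The same promoter to intergenic ratio was 0.773 for CCWGG motifs that were not isolated and 0.484 for CCGG motifs, and neither exceeded 1 on any of the 19 autosomes. In promoters, 24.8% of CCGG motifs were listed and in intergenic sequence 51.3%. The ratio of the isolated sites was smaller at equal composition. It was 1.14 after standardization over GC content, 1.03 over GC content and CpG distance together, and 1.59 without standardization for motifs over 100 bp from CpG and CCGG. The gene body ratio was 1.28, 1.2 and 1.42 in the same settings. Each location was also set against the number expected from the listing rate of all unique isolated motifs in the same bins of GC content and CpG distance. On this scale promoters held 0.892 times the expected number (exact Poisson interval 0.874 to 0.910), intergenic sequence 0.900 times and gene bodies 1.08 times. Promoters and intergenic sequence stayed below 1 on 19 of 19 autosomes.

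Coding exons had the highest listing rate of the locations. Of 62815 isolated motifs in coding exons 8817 were listed, a rate of 14.04% against 4.14% in introns, 6.21% in 3′ UTRs and 7.09% (6.07 to 8.26) in 5′ UTRs beyond the promoter. The coding exon to intron ratio was 3.39 (3.32 to 3.46), with 2.79 to 3.91 over the autosomes. It was 1.74 for CCWGG motifs that were not isolated and 1.16 for CCGG motifs. Coding exons were richer in GC (mean 53.0% against 47.9% in introns) and their motifs closer to a CpG (median 32 against 59 bp). Standardized over bins of GC content and CpG distance, the ratio was 1.51. Observed over expected was 1.60 (1.57 to 1.63) in coding exons and 1.04 in introns. At 61 to 65% GC, 29.8% of coding exon motifs and 16.3% of intron motifs were listed, while at 36 to 40% the rates were 0.604% (0.378 to 0.966) and 0.526%. The rates of the low bin lay within counting error of each other, and those of the high bin did not.

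**Figure D3:**
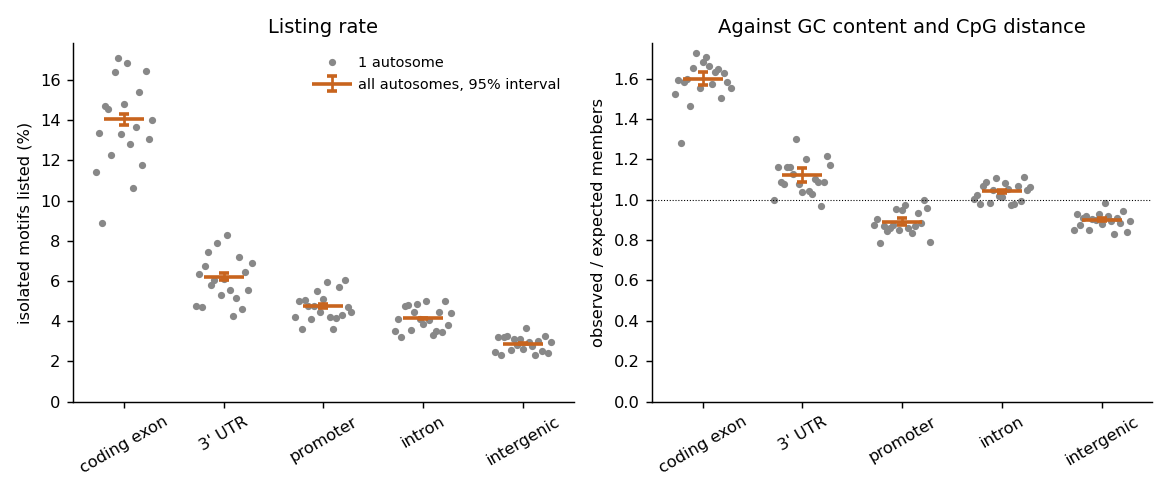
Listing rate of unique isolated CCWGG motifs (left) and observed over expected number of members given GC content and CpG distance (right), by location. Grey points are the 19 autosomes, orange bars the pooled values with 95% intervals. Coding exons lie at 14.04% and 1.60, and promoters drop from 4.76% to 0.892 times the expected number.

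Start sites were poor in isolated sites once composition was taken into account. Around protein-coding genes of at least 10 kb (13520 genes), observed over expected was 1.07 from 20 to 10 kb upstream, 0.764 from 1000 to 500 bp upstream and 0.567 (0.513 to 0.626) in the last 500 bp. It was 0.634 in the first 500 bp downstream, 0.841 from 1 to 2 kb and 1.15 from 10 to 20 kb. The listing rate itself was 3.92% just upstream and 5.74% just downstream of the start, where GC content was highest. Along the gene body, from start to end in 10 equal parts, the rate rose from 3.82% in part 1 to 5.63% in part 10. Observed over expected went from 0.886 to 1.14, with its highest value of 1.16 in part 9.

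**Figure D4:**
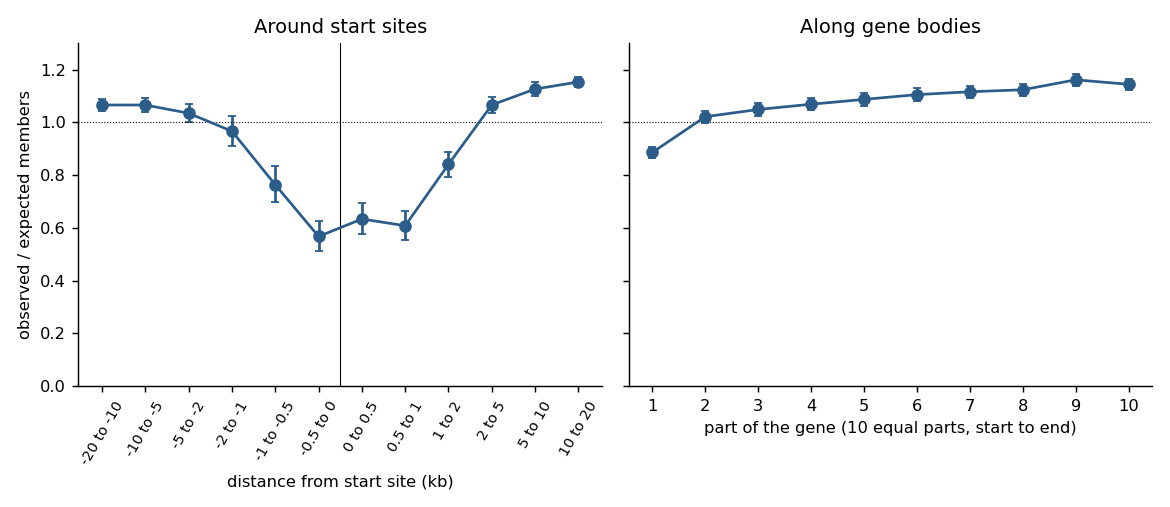
Observed over expected number of isolated sites by distance from the start site (left, bins in kb, negative upstream) and by position in the gene body in 10 equal parts from start to end (right), for protein-coding genes of at least 10 kb. Points are pooled values with exact Poisson 95% intervals and the dotted line marks 1. The dip reaches 0.567 just upstream of the start, and values along the body run from 0.886 to 1.16.

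Sense and antisense sites were listed at similar rates in gene bodies, 4.43% and 4.49%. A site was called sense when the coding strand carried CCAGG. Among members in exactly 1 gene beyond promoters, 43779 of 90956 (48.1%) were sense, against 48.5% of 2040360 motifs in the same setting. The difference was -0.351 percentage points (-0.683 to -0.0193). The interval included 0 at a minimum of 10 reads (-0.851 to 0.241), with protein-coding genes only (-0.581 to 0.0915) and with motifs unique or not (-0.550 to 0.102). It excluded 0 at minima of 6 reads (-0.914 to -0.164) and of 20 reads, where the difference was -1.15 points (-2.13 to -0.166, below 0 on 14 of 19 autosomes), and over 100 bp from CCGG and 32 bp from CpG (-1.18 to -0.101). The difference was below 0 on 13 of 19 autosomes, was -0.885 for CCAGG sites alone and 0.182 for CCTGG sites alone. The site type records the spelling on the plus strand, so the sense share is the share in plus-strand genes within CCAGG sites and the share in minus-strand genes within CCTGG sites. In introns the difference was -0.123 (-0.479 to 0.234).
Coding exons showed a larger asymmetry. There, 45.2% of 8068 members were sense, against 47.5% of the motifs, a difference of -2.28 points (-3.44 to -1.12) that was below 0 on 17 of 19 autosomes. In terms of rates, 13.3% of sense and 14.6% of antisense motifs of coding exons were listed. With at least 20 reads the difference was -4.06 points (-7.04 to -1.08), below 0 on 12 autosomes.

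CCGG motifs near the isolated sites were read more deeply than those near unlisted motifs. Within 1 kb, 75.4% of members and 60.6% of unlisted isolated motifs had a CCGG motif, all beyond the 40 bp that the rule keeps free. With unlisted CCGG motifs counted as 0, the mean was 27.7 reads per CCGG motif near members and 24.7 near unlisted motifs. The ratio was 1.12 and ran from 1.09 to 1.15 over the autosomes. Of these CCGG motifs, 74.0% were listed near members and 68.0% near unlisted motifs. Among the members, the number of reads of a site and the mean depth of its CCGG neighbours were hardly related across 122615 sites (Spearman's rho 0.00719), which share 1 library and its depth.

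The contrast was widest in promoters. There the mean was 18.6 reads per CCGG motif near members and 15.3 near unlisted motifs, and 54.5% and 40.2% of the CCGG motifs were listed. Of promoter members with at least 3 CCGG motifs within 1 kb, 8.54% had none of them listed, against 19.4% of unlisted promoter motifs. Put the other way, promoter motifs with at least 3 CCGG neighbours held 0.374 times the expected number of members (0.338 to 0.414) where no neighbour was listed and 1.17 times (1.11 to 1.24) where all were. In gene bodies the same values were 0.772 and 1.25, and in intergenic sequence 0.722 and 1.09.

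Isolated sites also stood close to one another. A motif with another member 1 to 10 bp away was listed in 87.4% of cases, with one 11 to 20 bp away in 42.6% and with one 32 to 50 bp away in 13.1%. Motifs under 32 bp apart can lie in one fragment and be counted from the same reads. Of all 168981 members, unique or not, this touches 25336 (14.99%) with another member within 31 bp, which are not independent of it. Beyond 100 and up to 1000 bp, observed over expected lay between 0.962 and 0.988, and over 20 kb from any other member it was 0.645.

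Among protein-coding genes, 4.65% of the isolated gene-body motifs were listed. The 4695 genes with at least 100 such motifs had a median rate of 4.27%, with 0.910% and 10.9% at the 5th and 95th percentiles, and 58 had no member. Rate and GC content were related across these genes (Spearman's rho 0.805), which share 1 library and are not independent replicates. Beside the expected number from GC content and CpG distance, the lower bound of observed over expected exceeded 1 in 279 genes and the upper bound was under 1 in 105. The median of observed over expected across the 4695 genes was 1.04. With 95% intervals, counting error alone leaves some of so many genes outside on either side, so neither count was read as a result.

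The 10 genes with the highest rates were all rich in GC (53.4 to 58.8% around their motifs, against a median of 48.2% over the 4695 genes). Stab1, a scavenger receptor of macrophages and sinusoidal endothelium, led with 24 of 100 motifs (24.0%, 16.7 to 33.2), 14 of them in exons. Pxn, the focal adhesion protein paxillin, had 35 of 159 and Pip5k1c, a phosphoinositide kinase, 22 of 100 (both 22%). Kmt2d, a histone H3 lysine methyltransferase of enhancers, had 24 of 114, 15 of them in exons. Mroh2a had 32 of 155, Ints1, a subunit of the Integrator complex, 21 of 107, and Cacna1h, a T-type calcium channel, 54 of 276. Inf2, a formin, Dpp9, a dipeptidyl peptidase, and Tns4, a tensin, closed the list at 18.9%, 18.5% and 18.4%. Against their composition these 10 genes held 1.66 to 2.88 times the expected number, with Mroh2a the highest of them, but the intervals of the 10 overlapped. The genes were chosen by their rate in the same counts, so an excess over the expected number follows in part from that choice.

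Genes with the most members were long. Gm20388 held 540 members over an annotated span of 4435 kb that contains 71 other protein-coding genes, and Fgfr2, a fibroblast growth factor receptor, 159 over 2961 kb that contain 29. Camta1 held 177, the splicing regulator Rbfox3 153 and Nav2 124. Their observed over expected values lay between 0.996 and 1.23. At the other end stood the 58 genes with no member, of which the 5 with the most motifs are named. For Skint6 (0 of 404 motifs) this allows a rate of up to 0.743%, for Brinp3 (0 of 324) 0.926%, for Cnbd1 (0 of 281) 1.07%, for Man1a (0 of 278) 1.08% and for Adcy8, an adenylyl cyclase, (0 of 238) 1.26%, taking 3 counts as the limit of a count of 0. Such limits hold for genes fixed in advance, and these 5 were chosen for having no member, so the limits are too tight for them. The 5 genes had 39.8 to 44.8% GC around their motifs.

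For each gene group, members and motifs were summed over all its genes with any isolated motif, and genes were counted where they had at least 20. Of all 12483 protein-coding genes with at least 20, 47.4% had a rate above 4.65%, 53.1% held more members than expected from their composition and 12.2% had none. Summed over all protein-coding genes, gene bodies held 1.09 times the expected number. Genes of the neuronal list, mostly for receptors, channels and adhesion proteins, with some for vesicle release, synaptic scaffolds and splicing, were low. They held 668 members on 43580 motifs (1.53%), and 1 of 38 genes was above the rate of all genes. With 44.3% GC on average they were also poor in GC, but they still held 0.709 times the expected number (0.656 to 0.765), and 3 of 38 exceeded it. Rbfox1 had 57 of 3250 motifs (0.677 times the expected number), the cell adhesion gene Lsamp 26 of 2878 (0.567) and the neurexin gene Nrxn3 27 of 2660 (0.583). Gria2 and Snap25 were above the expected number with 5 members each, and both intervals included 1. Olfactory receptor genes, expressed mainly in the nose, had a similar rate of 1.41% (73 of 5181 motifs) and 0.737 times the expected number (0.577 to 0.926). Of the 16 with at least 20 motifs, 10 had no member, 4 were above the rate of all genes and 4 exceeded their expected number.

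The list of DNA methylation genes, which besides the methyltransferases, their cofactors, TET and repair enzymes and readers holds histone enzymes and a corepressor (Kdm2b, Ehmt1, Ehmt2, Setd2, Setdb1, Nsd1, Kdm1a and Trim28), held 186 members on 3220 motifs (5.78%, 5.02 to 6.64) and 1.25 times the expected number (1.07 to 1.44), an interval that includes the 1.09 of all protein-coding genes. Rates were above that of all genes in 15 of 25 of them, and 13 of 25 held more than expected, a share close to the 53.1% of all genes. The highest rate was that of Mbd3, a relative of the methyl-CpG binding proteins, with 4 of 20 motifs (20%). Of the de novo methyltransferase genes, Dnmt3a had 36 of 402 motifs listed (8.96%) with 479 reads in all, and Dnmt3b 9 of 94 (9.57%). Given their composition Dnmt3b held 2.24 times (1.02 to 4.25) and Dnmt3a 1.18 times (0.827 to 1.63) the expected number. Tet3, an oxidase of methylcytosine, had 30 of 289 (10.4%), Setd2, the methyltransferase of histone H3 lysine 36 in transcribed genes, 11 of 171 (2.32 times the expected number, 1.16 to 4.16) and Hells, a chromatin remodeller that aids DNA methylation, 5 of 68 (4.44 times, 1.44 to 10.4). The maintenance gene Dnmt1 had 9 of 150 (0.940 times). Ehmt2, Kdm1a and Mbd1 stood at 0.598, 0.697 and 0.493 times, Mbd4 had 0 of 31, which allows up to 9.68%, and Uhrf2 had 0 of 94, which allows up to 3.19%.

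Pluripotency genes held 149 members on 2781 motifs (5.36%, 4.58 to 6.26) and 1.17 times the expected number (0.988 to 1.37), an interval that includes both 1 and 1.09. Of 20 genes with enough motifs, 13 were above the rate of all genes and 16 held more members than expected, among them Sall4 and Dppa4 with 2 and 1 members, practically their expected numbers. Tcf7l1, a repressor of the pluripotency network, had 26 of 372 motifs listed, the orphan receptor gene Esrrb 29 of 503 (0.996 times the expected number), Nr5a2 13 of 236 and the receptor gene Lifr, through which leukemia inhibitory factor acts, 13 of 192 (1.48 times). The deepest were single sites in Tbx3 and Tcf7l1 with 55 and 53 reads. Fgf4, an autocrine growth factor of ESCs, had 1 of 73 motifs (0.264 times, 0.00669 to 1.47). Nanog, Klf4 and Pou5f1 had 17, 3 and 5 isolated motifs and no member. They are named after their values were seen and have too few motifs to say more.
Housekeeping genes held 90 members on 1762 motifs (5.11%) and 1.31 times the expected number (1.05 to 1.61), which again includes 1.09. Ubr4 and Dync1h1 supplied 28 and 17 of these members, and the median rate over the genes with at least 20 motifs was 3.33%. Only 7 of 21 genes exceeded the rate of all genes, but 14 of 21 exceeded the number expected from their GC content and CpG distance. Mean GC content over the whole list was 46.9%, against 48.3% over all protein-coding genes. The dynein heavy chain gene Dync1h1 had a rate of 13.9% (122 motifs) and Ubr4, a ubiquitin ligase, one of 9.03% (310 motifs). The 4 lists share no gene, and with 1 library no test between them was made.

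**Figure D5:**
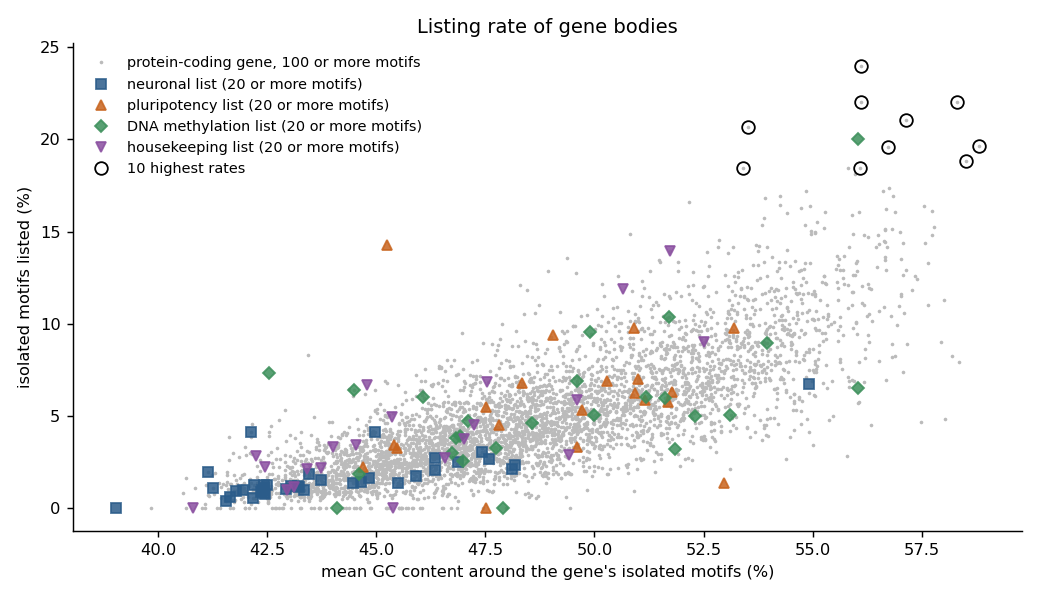
Listing rate of isolated gene-body motifs against the mean GC content around them, for protein-coding genes. Grey points are genes with at least 100 motifs, coloured symbols genes of the 4 lists with at least 20, and black circles the 10 highest rates. Genes of the neuronal list lie low on the left, and the 10 highest rates start at 53.4% GC.

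The 10 deepest members came from few places. Sfi1, which encodes a centrosomal protein, held 5 of them, with 743, 553, 288, 282 and 177 reads on chromosome 11, the first in its promoter and the rest in introns. Of these, 4 had a 27 bp window found at 2 positions of the reference, so that their reads could stem from either. The site with 696 reads on chromosome 14, in the promoter of Gm21738, had 40 such copies, and one with 175 reads on chromosome 1 had 8. The intergenic site on chromosome 8 (313 reads) and the intron sites of Ap1b1 (181 reads) and Napsa (179 reads), shown above, had unique windows. The Ap1b1 site lay 194 bp and the Napsa site 16 bp from the nearest CpG. Over all unique members, gene bodies held 59.0% of those with 5 reads and 60.6% of those with at least 50. The share in coding exons rose at each step of depth, from 4.40% at 5 reads over 5.25% at 6 to 9, 6.11% at 10 to 19 and 6.51% at 20 to 49 to 8.17% at 50 or more.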

How the data were processed

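MethylRAD reads of 1 undifferentiated ESC library were analysed. The authors trimmed the reads, kept those with an FspEI site, aligned them to GRCm38 with Bowtie2 (version 2.3.3, from the submitters' processing notes) and kept unique alignments and sites with at least 5 reads. The deposited table gives a count of reads and an RPM value per site, and the counts were used here. It held 40176194 reads. No input or unmethylated control was used here.
From the reference, CCWGG, CCGG and CpG positions were found with Python 3.11.15 and numpy 2.4.6, and gene locations came from GENCODE M21. Listing rates were the share of isolated motifs in the table, with Wilson 95% intervals. Expected numbers came from 5-point bins of GC content (50 bp on either side) and bins of CpG distance, with exact Poisson intervals. The scripts were tested on simulated data. Named genes were protein-coding with at least 100 isolated unique motifs: the 10 highest rates, the 5 with the most members and the 5 lowest rates (ties by more motifs), plus list genes with at least 20 motifs and the 10 deepest sites. Members and lists were chosen with earlier results of these data known. Read minimum, isolation distance, site type, uniqueness, gene type, promoter width, standardization and CCGG window were varied.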

Additional observations from a re-analysis of the deposited data

How the results depend on the processing

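No paired analysis was possible because each condition had 1 library. The gene body, coding exon and CCGG depth ratios stayed above 1 under every alternative run, as did the promoter ratio. Promoters held 0.892 times (0.874 to 0.910) and intergenic sequence 0.900 times (0.893 to 0.908) the number expected from composition, and these intervals overlapped. The promoter ratio standardized over GC content and CpG distance was 1.03 and has no interval. The sense difference reversed to 0.182 points for CCTGG alone and was -0.885 for CCAGG alone. It was -0.539 at 6 reads, -0.639 over 100 bp from CCGG and 32 bp from CpG and -1.22 over 100 bp from CpG and CCGG (added after seeing the data), and its cause was not tested.
At least 10 reads left 59578 sites, a rate of 1.34%, ratios of 1.63 (gene body), 1.73 (promoter) and 3.94 (coding exon to intron, added later) and a CCGG depth ratio of 1.15; the list rates were 1.93% (DNA methylation), 2.10% (housekeeping), 0.503% (neuronal), 1.87% (pluripotency) and 0.425% (olfactory). At least 6 reads gave 2.92%, 1.60 for gene bodies, and list rates of 4.41% (DNA methylation), 1.15% (neuronal), 4.14% (pluripotency) and 1.12% (olfactory). Distances over 100 bp from CCGG and 32 bp from CpG left 65441 sites, 2.09%, 1.48, 1.61 and a depth ratio of 1.09. CCAGG alone left 84243 sites with a depth ratio of 1.14, and CCTGG alone 84738 with 1.10. With motifs unique or not, the rate was 3.12%, the ratios 1.71 and 1.73, the depth ratio 1.24, and the DNA methylation and neuronal lists 4.88% and 1.37%.
The gene body ratio was 1.60 with protein-coding genes only, 1.28 standardized over GC content, 1.25 over CpG number, and, added later, 1.2 over GC content and CpG distance and 1.42 over 100 bp from CpG and CCGG. The promoter ratio was 1.61 within 3 kb, 1.46 for 1 kb upstream, 1.14 over GC content, and, added later, 1.03 and 1.59 for the same pair of settings. The coding exon ratio was 1.51 standardized, also with GC content of 27 bp added, and 1.98 over 100 bp away. The CCGG depth ratio was 1.09 within 500 bp and 1.14 within 5 kb.
Depth limits the rates: 23.0% of members had the minimum of 5 reads, unlisted motifs may hold fewer reads rather than none, and counts of 1 library carry no biological spread.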

Other observations

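By type of gene, isolated motifs in lincRNA genes were listed at 3.04% and held 0.912 times the number expected from GC content and CpG distance (0.886 to 0.938), against 4.64% and 1.09 times (1.09 to 1.10) in protein-coding genes. Antisense genes stood at 3.51% and 0.956 times (0.905 to 1.01). Repeat-masked motifs were listed at 2.93% and held 0.862 times the expected number, and other motifs 3.99% and 1.03 times.
Some single genes, chosen after their values were seen, lay far from the number expected for their composition. Cdc73, a subunit of the PAF1 transcription elongation complex, held 10 members on 120 motifs (3.68 times, 1.77 to 6.78), and Xrcc5, the Ku80 subunit of DNA end joining, 20 on 165 (2.86 times, 1.74 to 4.41). Pole4, a subunit of DNA polymerase epsilon, held 15 on 175 (3.06 times). Nrg3, a neuregulin, held 5 on 1443 (0.243 times) and the receptor gene Lrp1b 15 on 2325 (0.392 times). These values come from 1 library and the extremes of 4695 genes, so no test was made.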
